A study of Homo sapiens with 40 samples.

Results

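Glycogen is the branched glucose polymer that cells keep as a carbohydrate store. Its synthesis and breakdown are set in part by protein phosphatase 1 (PP1), which removes phosphate from glycogen synthase and from glycogen phosphorylase and so favours storage. PP1 is brought to the glycogen particle by targeting subunits, which bind glycogen, the catalytic subunit and the substrate enzymes, whereas cAMP acts in the opposite direction at the protein level through protein kinase A and phosphorylase kinase. The genes described here are 4 such targeting subunits and 4 enzymes: PPP1R3B (the form best known from liver), PPP1R3C (also called protein targeting to glycogen), PPP1R3D and PPP1R3E, the glycogen synthase GYS1, the branching enzyme GBE1, and the glycogen phosphorylases PYGB (brain form) and PYGL (liver form). They were chosen by gene name, 8 of the 15788 genes in the table, after earlier results of these data had shown a higher PPP1R3C level with a phosphodiesterase inhibitor than with vehicle. Other earlier results against vehicle were known at that point as well. For that reason values against vehicle are given below as a description without a test, and the 8 genes were tested only in 17 comparisons between groups other than vehicle and the inhibitor alone. The vehicle and inhibitor libraries still entered the estimate of the spread, which all groups shared.

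RNA was measured in BEAS-2B, an immortalised line of human bronchial epithelial cells, after 2 h of treatment, in 40 libraries that formed 10 groups of 4. All groups, vehicle included, were confluent cultures kept overnight without serum beforehand. Besides vehicle, cells received 1 µM roflumilast N-oxide (RNO), which blocks PDE4, a phosphodiesterase family that degrades cAMP. ONO-AE1-329 (ONO), which activates the prostaglandin receptor EP4, was given at 0.1 nM, 1 nM or 1 µM, and vilanterol (Vil), which activates the β2-adrenoceptor, at 100 nM. The last 4 groups combined RNO with 1 of these agonist treatments. Both receptors raise cAMP, and the labels describe ONO at 1 µM and vilanterol at 100 nM as maximal concentrations. The labels do not state that replicates of a group were separate cultures. The p-values therefore reflect only the variation among these libraries, which may be technical. The tests below left out the replicate number. In deviations from the group mean, 40 of 40 libraries correlated best with a same-numbered library of another group. Fits with that number as a block are given under the processing alternatives.

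The values are TPM, a transcript level scaled for length and depth, so levels of different genes can be compared. Depth is unknown because no counts were analysed, and in bulk RNA a change in the share of cells and a change per cell cannot be told apart. The column totals lay between 956888 and 1091466. One vehicle library, replicate 3, stood apart from its group: its gene values deviated from the group mean with an SD of 0.209 on the log2 scale, against a median of 0.115 over all libraries. Of 7 epithelial markers, KRT8 (median 351 TPM over the 40 libraries), KRT18 (289 TPM) and KRT7 (14.4 TPM) were present, EPCAM (0.255 TPM) and CDH1 (0.726 TPM) were low, and KRT19 and KRT5 were not among the genes of the table. The mesenchymal markers VIM (1307 TPM), COL1A1 (494 TPM), FN1 (627 TPM) and CDH2 (37.5 TPM) were all present. The treatment readouts PDE4D, a cAMP-inducible phosphodiesterase, and NR4A3, an immediate early nuclear receptor, were 2.18 and 1.35 TPM with vehicle and 15.1 and 73.3 TPM with vilanterol, and PTGER4, which encodes EP4, was 1.57 TPM with vehicle and 1.06 TPM with vilanterol.

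The promoters of PPP1R3C and PPP1R3D are shown because these neighbours in the family share a base composition and an E-box yet differed widely in how far their RNA levels moved. Of the 8 genes, 6 had an entry in the RefSeq promoter table (GRCh38.p14), and PPP1R3B and PPP1R3E had none. The 250 bases before each start site were searched on both strands for the cAMP response element TGACGTCA, its half-site TGACG, the E-box CACGTG, the CCAAT box CCAAT and the TATA box TATAAA, and matches are in capitals. The PPP1R3C window is chr10:91633072-91633321 and the PPP1R3D window is chr20:59940306-59940555, both on the minus strand and printed 5′ to 3′.
PPP1R3C: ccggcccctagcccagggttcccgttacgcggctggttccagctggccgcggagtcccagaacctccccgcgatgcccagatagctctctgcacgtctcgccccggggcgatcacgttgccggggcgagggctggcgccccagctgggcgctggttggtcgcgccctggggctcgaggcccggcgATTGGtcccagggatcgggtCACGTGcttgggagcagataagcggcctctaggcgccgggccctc
PPP1R3D: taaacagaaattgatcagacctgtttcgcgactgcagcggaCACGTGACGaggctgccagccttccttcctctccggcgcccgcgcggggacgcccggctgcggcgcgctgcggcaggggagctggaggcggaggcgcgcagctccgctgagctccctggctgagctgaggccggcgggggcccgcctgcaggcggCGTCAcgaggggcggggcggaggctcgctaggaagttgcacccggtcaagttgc
In PPP1R3C, 72.4% of the bases were G or C, and the window held a CCAAT box on the reverse strand that began 65 bases before the start and an E-box that began 45 bases before it. In PPP1R3D, with 71.6% G or C, an E-box at 209 bases overlapped a half-site at 205 bases, and a further half-site lay on the reverse strand at 54 bases. The whole response element was in neither window, and in none of the 6 windows. For scale, among 35116 RefSeq promoters of this length the response element was in 1.65%, the half-site in 21.2%, the E-box in 6.34%, the CCAAT box in 32.0% and the TATA box in 10.7%. GYS1 had 2 CCAAT boxes, GBE1 had a TATA box 32 bases before its start, and PYGB and PYGL had no match to any of the 5 motifs. A match is a run of letters and was not tested as a binding site.

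PPP1R3C was the subunit whose level differed the most between groups. With vehicle the 4 libraries held 3.54, 3.24, 4.19 and 3.60 TPM, a mean of 3.64 ± 0.398 (SD, n = 4). With ONO at 0.1 nM the values were 4.87, 4.20, 4.36 and 3.95 TPM, and they overlapped vehicle. With ONO at 1 nM they were 8.07, 7.14, 6.48 and 7.49 TPM, and with ONO at 1 µM 16.2, 13.6, 12.2 and 13.3 TPM. Each of these sets lay wholly above the one at the next lower concentration. Vilanterol gave the highest values, 28.3, 21.3, 19.9 and 22.6 TPM, a mean of 23.0 ± 3.67 (SD, n = 4) and 6.32 times the vehicle mean.

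With RNO alone PPP1R3C was 4.92, 5.98, 6.61 and 6.22 TPM, 1.63 times the vehicle mean and above every vehicle library. This is the contrast in which the gene had been singled out. RNO together with ONO gave 7.03, 7.41, 8.33 and 7.14 TPM at 0.1 nM, 12.0, 10.6, 11.2 and 9.73 TPM at 1 nM, and 25.0, 20.0, 18.4 and 18.4 TPM at 1 µM. Each of these 3 groups lay above its partner without RNO. With vilanterol and RNO the values were 26.3, 21.0, 20.6 and 21.3 TPM, inside the spread of vilanterol alone. In ascending order of the mean the groups ran vehicle, ONO 0.1 nM, RNO, ONO 1 nM, ONO 0.1 nM with RNO, ONO 1 nM with RNO, ONO 1 µM, ONO 1 µM with RNO, vilanterol with RNO, and vilanterol. Neighbours whose libraries overlapped were vehicle and ONO 0.1 nM, RNO and ONO 1 nM, ONO 1 nM and ONO 0.1 nM with RNO, and the 3 highest groups. Without vehicle replicate 3, the highest vehicle library for this gene, the ratio to vehicle became 1.71 for RNO and 6.66 for vilanterol.

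**Figure D1:**
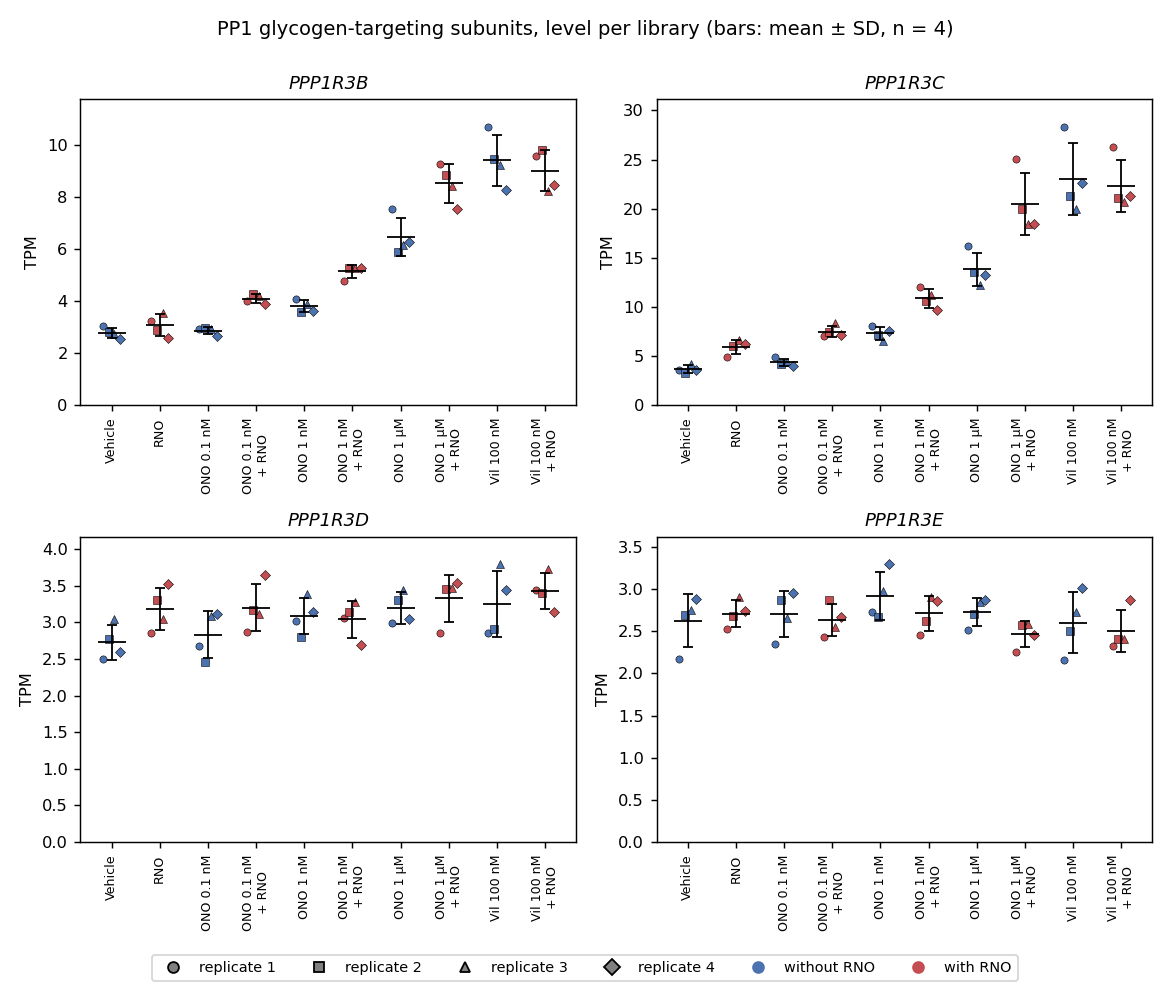
Level in TPM (vertical axes, from 0) of the 4 targeting subunits in each of the 40 libraries, by treatment (horizontal axes), with the mean and SD of 4 libraries as bars. PPP1R3C reached 28.3 TPM and PPP1R3B 10.7 TPM in single vilanterol libraries, whereas all libraries of PPP1R3D lay between 2.46 and 3.79 TPM and all of PPP1R3E between 2.16 and 3.29 TPM.

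PPP1R3B took a similar course at lower levels. Its vehicle libraries held 3.02, 2.79, 2.73 and 2.55 TPM, and those with ONO at 0.1 nM 2.93, 2.95, 2.92 and 2.66 TPM, which overlapped them. With ONO at 1 nM the values were 4.06, 3.59, 3.89 and 3.61 TPM, with ONO at 1 µM 7.53, 5.89, 6.15 and 6.25 TPM, and with vilanterol 10.7, 9.47, 9.21 and 8.28 TPM. These 3 groups were above vehicle in every library, and their means were 1.37, 2.33 and 3.39 times the vehicle mean. RNO alone gave 3.23, 2.88, 3.56 and 2.58 TPM, a mean of 3.06 ± 0.421 (SD, n = 4) that overlapped vehicle. With RNO added, PPP1R3B was 3.99, 4.28, 4.20 and 3.88 TPM at 0.1 nM ONO, 4.76, 5.28, 5.26 and 5.27 TPM at 1 nM, and 9.26, 8.86, 8.44 and 7.53 TPM at 1 µM. Vilanterol with RNO gave 9.56, 9.79, 8.22 and 8.47 TPM. The order of the 10 group means was the same as for PPP1R3C, and here vehicle, ONO 0.1 nM and RNO overlapped as neighbours at the low end, as did ONO 1 nM and ONO 0.1 nM with RNO, and the 3 highest groups.

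PPP1R3D and PPP1R3E kept to a narrower range than PPP1R3C and PPP1R3B. PPP1R3D, a subunit found in many tissues, had its lowest mean with vehicle (2.73 ± 0.239 TPM, SD, n = 4) and its highest with vilanterol and RNO (3.43 ± 0.243 TPM, SD, n = 4), a ratio of 1.26. The latter was the only treated group of the 9 whose libraries all lay above vehicle for this gene. PPP1R3E lay between group means of 2.47 TPM (ONO 1 µM with RNO) and 2.92 TPM (ONO 1 nM), and every treated group overlapped vehicle. PPP1R3F and PPP1R3G, 2 family members outside the chosen genes, were close to the lower limit for testing: PPP1R3F had group means of 0.961 to 1.25 TPM, and PPP1R3G, a subunit known from liver, had group means of 0.491 to 1.18 TPM and was not tested. The ratio of the highest to the lowest group mean was 1.31 for PPP1R3F and 2.39 for PPP1R3G. PPP1R3G was 0.764 ± 0.081 TPM with vehicle and 1.18 ± 0.197 TPM with vilanterol and RNO (SD, n = 4), without overlap. Its other groups clear of vehicle were ONO 1 µM with RNO (1.11 TPM, above) and ONO 1 nM (0.622 TPM, below).

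The enzymes on which the phosphatase acts, and the branching enzyme, differed little between treatments. GYS1 ran from a group mean of 23.2 to one of 24.6 TPM, GBE1 from 39.2 to 41.0 TPM, PYGB from 37.1 to 39.5 TPM and PYGL from 101.6 to 109.6 TPM. Every treated group overlapped vehicle for each of the 4 enzymes. The ratio of the highest to the lowest group mean was 1.06 for GYS1, 1.05 for GBE1, 1.07 for PYGB and 1.08 for PYGL. Of the 12591 tested genes, 8.64%, 3.31%, 13.2% and 20.0% had a smaller ratio than these enzymes, in the same order. The corresponding shares were 99.8% for PPP1R3C (ratio 6.32), 99.4% for PPP1R3B (3.39), 77.9% for PPP1R3D (1.26) and 64.8% for PPP1R3E (1.18). For PPP1R3C and PPP1R3B the lowest mean was that of vehicle, the reference of the contrast in which PPP1R3C had been singled out. The subunits also lay at lower TPM than the enzymes, so the shares compare genes of unlike level and are a description.

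**Figure D2:**
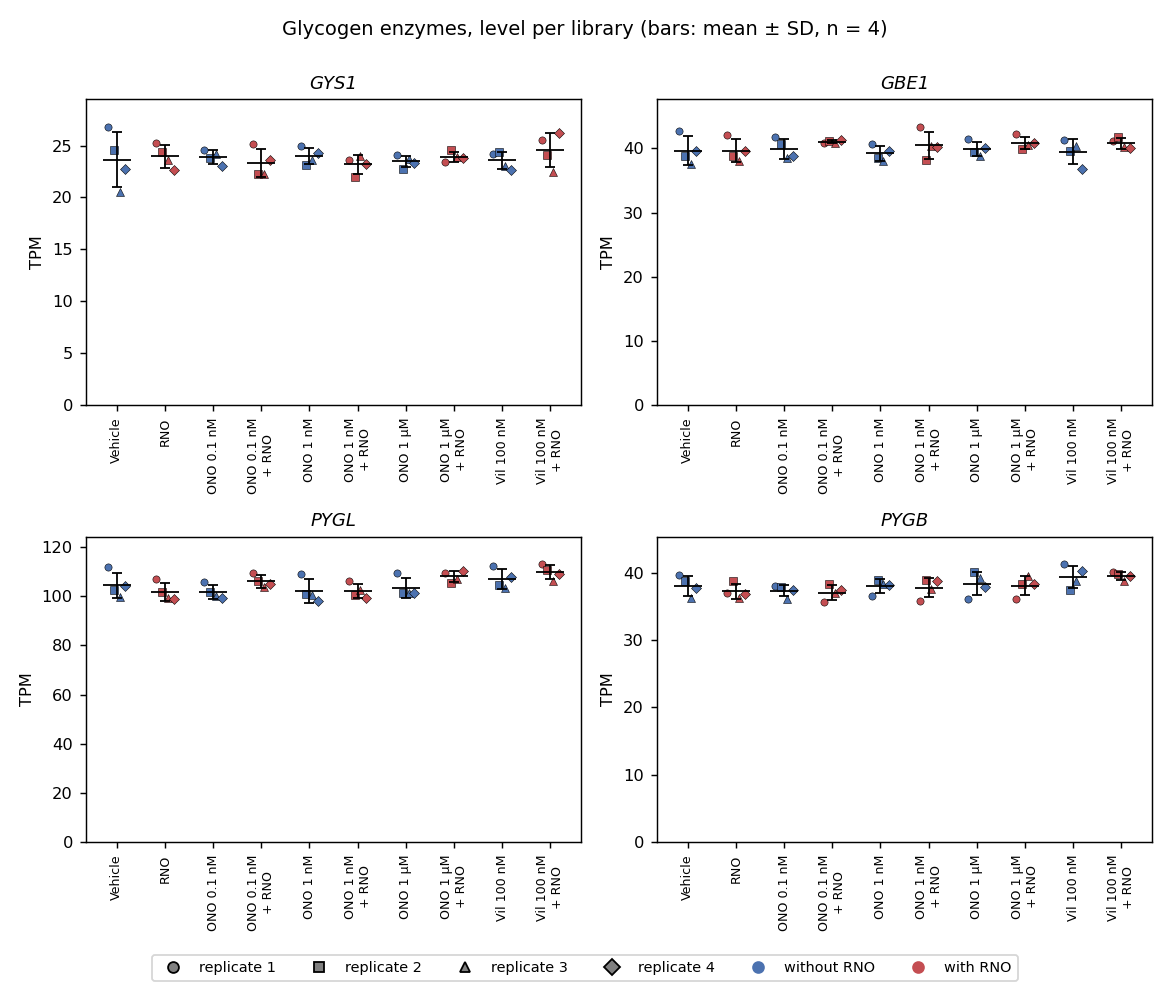
Level in TPM (vertical axes, from 0) of glycogen synthase, branching enzyme and both phosphorylases in each of the 40 libraries, by treatment, with the mean and SD of 4 libraries as bars. No treated group stood clear of vehicle for any of the 4 enzymes, and replicate 1 (circles) was the highest of its group in 9 of 10 groups for PYGL and in 8 of 10 for GBE1.

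All these subunits bind the same PP1 catalytic subunits, so their relative RNA levels are given as well. The summed level of PPP1R3B, PPP1R3C, PPP1R3D and PPP1R3E was 11.8 ± 0.659 TPM with vehicle and 38.3 ± 3.86 TPM with vilanterol (SD, n = 4). PPP1R3C was 30.9 ± 1.99% of that sum with vehicle, 39.7 ± 2.30% with RNO, 52.6 ± 2.50% with ONO at 1 µM, and 59.9 ± 3.51% with vilanterol (SD, n = 4). PPP1R3B held a steady share, with group means from 20.6% to 24.6%. PPP1R3D and PPP1R3E made up 23.1% and 22.3% with vehicle and 8.59% and 6.89% with vilanterol. Their mean TPM with vilanterol was 1.19 and 0.992 times that with vehicle. The ratio of PPP1R3C to PPP1R3B was 1.32 ± 0.183 with vehicle and 2.45 ± 0.283 with vilanterol (SD, n = 4). The summed level of the 4 enzymes stayed between group means of 202.5 and 214.6 TPM.

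**Figure D3:**
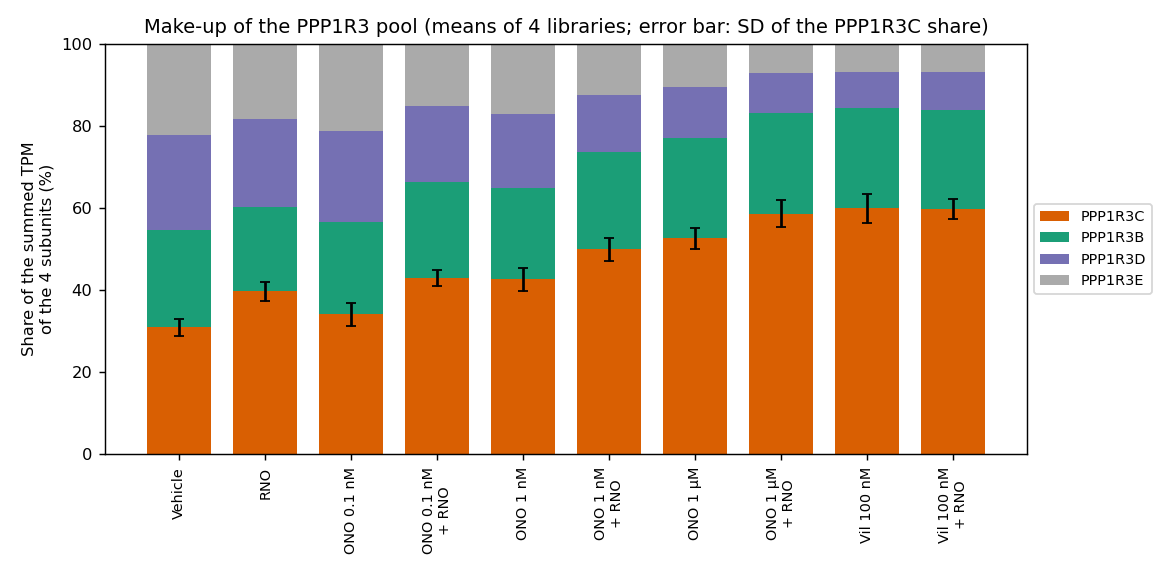
Share of the summed TPM of 4 targeting subunits held by each (vertical axis, percent) in the 10 groups, as means of 4 libraries, with the SD of the PPP1R3C share. The PPP1R3C share was 30.9% with vehicle and 59.9% with vilanterol, while the PPP1R3B share lay between 20.6% and 24.6%.

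The 17 tests were made with limma on log2(TPM + 1), with Benjamini-Hochberg adjustment over all 12591 genes in each comparison and a call at an adjusted p under 0.05. All 8 genes passed the minimum mean of 1 TPM, and each was above it in every group mean. For genes at a few TPM the added 1 makes these log2 differences smaller than the log2 ratio of means. Several comparisons share libraries, so they are not independent of each other. ONO at 0.1 nM overlapped vehicle for PPP1R3C and PPP1R3B, so comparisons with that group resemble the contrasts with vehicle known beforehand.

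Adding RNO to ONO was tested first, since it asks whether levels with the EP4 agonist differ when PDE4 is blocked. Whether the response to the agonist itself changed was not tested. That would need the effect of RNO over vehicle, which was left out of the tests. With RNO alone PPP1R3C already lay above every vehicle library, whereas PPP1R3B overlapped vehicle. At 0.1 nM ONO, PPP1R3C rose by 0.67 ± 0.101 (log2, SE; 95% interval 0.46 to 0.87; limma adjusted p = 0.00012) and PPP1R3B by 0.40 ± 0.0721 (0.25 to 0.54; adjusted p = 0.0015). At 1 nM PPP1R3C rose by 0.52 (0.31 to 0.72; adjusted p = 0.013) and PPP1R3B by 0.36 (0.21 to 0.51; adjusted p = 0.017). At 1 µM PPP1R3C rose by 0.53 (0.33 to 0.74; adjusted p = 0.0054) and PPP1R3B by 0.35 (0.21 to 0.50; adjusted p = 0.0093). Both were higher with RNO in every library at all 3 concentrations, a separation that was not counted over all genes. That made 2 of the 8 genes called in each comparison, where 0.723%, 0.238% and 0.604% of all tested genes were called.

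Adding RNO to vilanterol gave no call. PPP1R3C differed by -0.04 (95% interval -0.24 to 0.17; limma adjusted p = 1) and PPP1R3B by -0.06 (-0.20 to 0.09; adjusted p = 1). None of the 12591 genes was called by limma (0%), and 180 had an unadjusted p under 0.05, none of them among the 8. The effect of RNO with vilanterol was smaller than its effect with 0.1 nM ONO by a test of that difference: -0.70 ± 0.143 for PPP1R3C (95% interval -0.996 to -0.41; adjusted p = 0.016) and -0.45 ± 0.102 for PPP1R3B (-0.66 to -0.24; adjusted p = 0.049), with 0.191% of genes called. Between ONO concentrations the effect of RNO was not shown to differ. The difference from 0.1 nM was -0.15 (-0.44 to 0.14) at 1 nM and -0.13 (-0.43 to 0.16) at 1 µM for PPP1R3C, and -0.04 (-0.25 to 0.17) and -0.04 (-0.25 to 0.16) for PPP1R3B, all at a limma adjusted p of 1. In these comparisons 0% (170 genes with an unadjusted p under 0.05) and 0.00794% of all genes were called.

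Some of these calls rested on single libraries or on the shared estimate of spread. With only the compared groups fitted, neither gene was called for RNO added to ONO at 1 nM (limma adjusted p = 0.056 for PPP1R3C and 0.062 for PPP1R3B) or at 1 µM (0.12 and 0.16). Nor was either called for the RNO effect with vilanterol minus that with 0.1 nM ONO (0.052 and 0.088). Leaving out 1 library ended the PPP1R3C call at 1 nM without replicate 3 of ONO (0.078) or of ONO with RNO (0.051), and the PPP1R3B call there without replicate 2 (0.070) or 4 (0.098) of ONO or replicate 2 (0.085), 3 (0.059) or 4 (0.097) of ONO with RNO. At 1 µM the PPP1R3B call ended without replicate 2 of ONO (0.064) or replicate 1 of ONO with RNO (0.062). The vilanterol contrast of RNO effects lost PPP1R3C without ONO 0.1 nM with RNO replicate 3 (0.057), vilanterol replicate 1 (0.067) or vilanterol with RNO replicates 3 (0.062) or 4 (0.054). PPP1R3B lost that call in 13 of 16 fits that left out 1 library (adjusted p from 0.019 to 0.18 over the 16), without the filter on low values (0.069) and with equal totals (0.14). The calls at 0.1 nM held in every one of these settings.

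**Figure D4:**
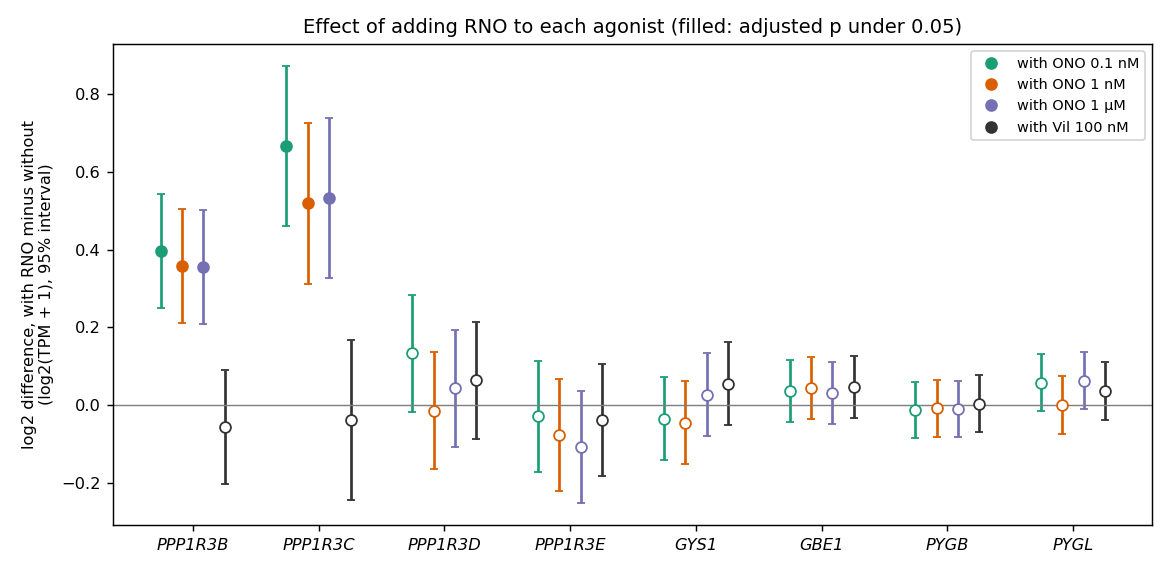
Log2 difference on log2(TPM + 1) between each agonist with RNO and without it (vertical axis) for the 8 genes, with 95% intervals; filled points passed an adjusted p under 0.05. PPP1R3B and PPP1R3C lay between 0.35 and 0.67 with ONO and at -0.06 and -0.04 with vilanterol, and the intervals of the other 6 genes all included 0.

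Concentration steps without RNO were called for the same 2 subunits. From 0.1 to 1 nM ONO, PPP1R3C rose by 0.63 (limma adjusted p = 5.8e-04) and PPP1R3B by 0.31 (adjusted p = 0.046), with 0.318% of genes called. From 1 nM to 1 µM PPP1R3C rose by 0.83 (adjusted p = 8.2e-07) and PPP1R3B by 0.63 (2.6e-07), with 2.11% called. Over the whole range, 0.1 nM to 1 µM, the ratio of means was 3.18 for PPP1R3C (log2 1.47; adjusted p = 4.5e-13) and 2.25 for PPP1R3B (log2 0.94; 5.8e-12), with 4.65% called. The PPP1R3B step from 0.1 to 1 nM was lost when any 1 of the 8 libraries was left out (adjusted p from 0.074 to 0.23) or when the libraries were scaled to equal totals (0.15).

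Vilanterol gave higher levels than the maximal concentration of the EP4 agonist. Against 0.1 nM ONO, PPP1R3C was 5.30 times as high with vilanterol (log2 2.16; limma adjusted p = 4e-18) and PPP1R3B 3.29 times (log2 1.43; 3e-17), where 14.6% of all genes were called. ONO at 1 µM reached 0.600 of the vilanterol mean for PPP1R3C (log2 -0.69, 95% interval -0.90 to -0.49; limma adjusted p = 4.4e-05) and 0.686 for PPP1R3B (log2 -0.48, -0.63 to -0.33; 6.3e-05). In that comparison 2.14% of genes were called, and in both comparisons the 4 libraries of each group stood clear of the other group.

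With RNO present, the maximal concentrations of the 2 agonists were not told apart. ONO at 1 µM with RNO differed from vilanterol with RNO by -0.12 (95% interval -0.33 to 0.08; limma adjusted p = 1) for PPP1R3C and by -0.07 (-0.22 to 0.07; adjusted p = 1) for PPP1R3B, and the libraries overlapped. Limma called 0% of genes there, with 306 at an unadjusted p under 0.05. Whether the gap between the agonists itself differed with and without RNO was not tested. The step from 0.1 to 1 nM in the presence of RNO was 0.49 for PPP1R3C (0.28 to 0.69; adjusted p = 0.075) and 0.27 for PPP1R3B (0.12 to 0.42; adjusted p = 0.36). Those groups did not overlap, but limma called 0% of all genes, with 377 at an unadjusted p under 0.05. With library weights PPP1R3C passed there (adjusted p = 0.006). With the replicate number as a block, given under the processing alternatives, both subunits passed there.

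The larger steps with RNO passed the test. From 1 nM to 1 µM, PPP1R3C rose by 0.85 (limma adjusted p = 4.3e-07) and PPP1R3B by 0.63 (1.9e-07), with 3.99% of genes called. From 0.1 nM to 1 µM the rises were 1.33 (adjusted p = 7.6e-12) and 0.90 (2.9e-11), with 6.12% called. Vilanterol with RNO exceeded ONO 0.1 nM with RNO by 1.46 (adjusted p = 6e-13) for PPP1R3C and 0.97 (2.8e-12) for PPP1R3B, with 9.01% called.

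In the fit described above, limma called the other 6 genes in none of the 17 comparisons, and 3 of their 102 tests had an unadjusted p under 0.05. Their log2 differences lay between -0.15 and 0.15 for PPP1R3D, -0.11 and 0.08 for PPP1R3E, -0.05 and 0.09 for GYS1, -0.03 and 0.05 for GBE1, -0.05 and 0.09 for PYGB, and -0.06 and 0.08 for PYGL. The lowest adjusted p was 0.12, for PYGB with vilanterol and RNO against ONO 0.1 nM with RNO (39.5 against 37.1 TPM; 95% interval 0.02 to 0.16), where the libraries did not overlap. For PYGL, vilanterol against 0.1 nM ONO gave 0.07 (-0.003 to 0.14; limma adjusted p = 0.23). A fit with the replicate number as a block, given under the processing alternatives, called PYGL there. That fit also called PYGL for ONO 1 µM with RNO against ONO 1 nM with RNO. Over the 17 comparisons the intervals reached 0.16 for PYGB and PYGL, 0.24 for GYS1 and 0.30 for PPP1R3D. They went down to -0.28 for PPP1R3E and -0.36 for PPP1R3D, so changes of those sizes were not excluded. Over the 8 genes the median log2 difference ranged from -0.04 to 0.07 across the 17 comparisons, beside -0.007 to 0.001 over all tested genes.

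PPP1R3C and PPP1R3B moved together across libraries, with a Pearson r of 0.978 on log2(TPM + 1) over 40 libraries that share 10 treatments. For deviations from the group mean, r was 0.426. PPP1R3C was highest in replicate 1 in 7 of 10 groups and PPP1R3B in 5, whereas PPP1R3D and PPP1R3E were highest there in none. The part of the replicate number in the results was not tested beyond the fits given under the processing alternatives. The 5 genes closest to PPP1R3C among 12590 others, by Pearson r over the 10 group means, were BCL2L11, a pro-apoptotic BCL2 family member (0.9972), LATS2, a kinase of the Hippo pathway (0.9971), PDE4D (0.9965), SLC26A2, a sulphate transporter (0.9963), and ZNF620, a zinc finger gene (0.9961). PPP1R3B ranked 32 by this measure (0.9917) and NR4A3 ranked 53 (0.9894). The other subunits gave 0.838 (PPP1R3D) and -0.520 (PPP1R3E), and the enzymes 0.733 (PYGB), 0.705 (PYGL), 0.368 (GBE1) and 0.218 (GYS1).

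**Figure D5:**
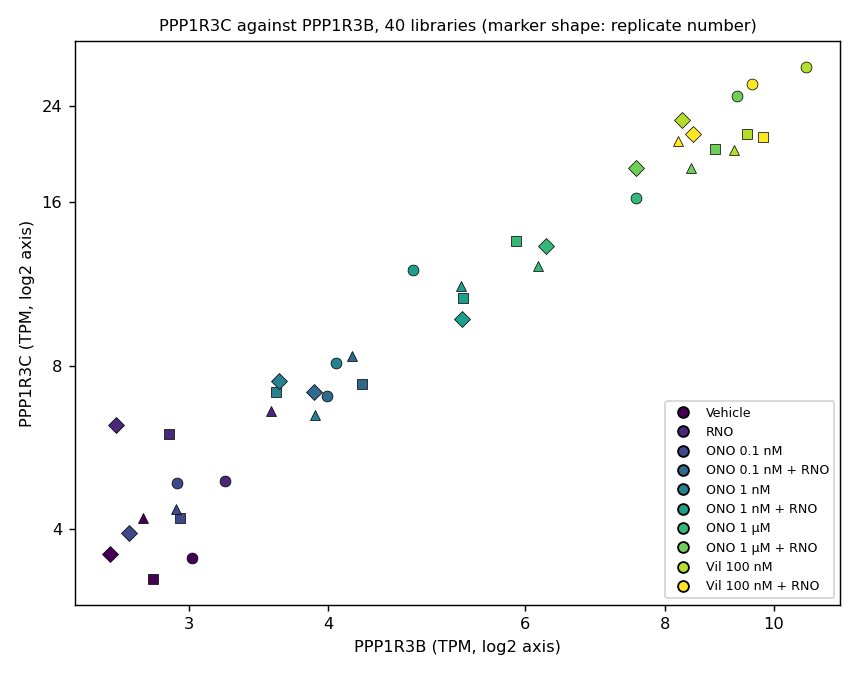
PPP1R3C against PPP1R3B in the 40 libraries, both in TPM on log2 axes, with colour for the treatment and marker shape for the replicate number. The points rise together from 3.24 TPM PPP1R3C in a vehicle library to 28.3 TPM in a vilanterol library (r = 0.978 over all libraries, 0.426 within groups), and the libraries of the 3 highest groups intermingle.

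The rest of the pathway was read from 8 lists of 53 other genes, of which 45 were in the table and 40 were tested. The lists were written with earlier results of these data known. The p-values of list genes against vehicle, here and below, are therefore not independent of that choice. With RNO alone 0 of the 40 were called against vehicle by limma, where 0.238% of all tested genes were called. Of the 40, 8 had an unadjusted p under 0.05, beside 1549 of all 12591 tested genes. With ONO at 1 µM 2 of 40 rose and 2 fell (7.21% of all genes called), and with vilanterol 8 rose and 4 fell (17.7%). With ONO 1 µM and RNO 6 rose and 5 fell (15.8%), and with vilanterol and RNO 8 rose and 6 fell (18.4%). The median log2 difference over the 40 genes was -0.01 with vilanterol, beside -0.01 over all genes. With RNO added to an agonist limma called 0 of the 40 in each of the 4 comparisons, and 4, 2 and 5 had an unadjusted p under 0.05 at rising ONO concentrations and 0 with vilanterol. Of all 12591 tested genes, 0.723%, 0.238%, 0.604% and 0% were called in the same order. Their counts with an unadjusted p under 0.05 were 691, 555, 973 and 180. Among the 40 list genes, library weights gave 1 call at 1 nM and 2 at 1 µM, and at 1 µM equal totals gave 1 and leaving out vehicle replicate 3 gave 1. A replicate block, given under the processing alternatives, gave calls among them at each ONO concentration. With only the compared groups fitted, 6 list genes rather than 12 passed for vilanterol. Without vehicle replicate 3, 7 rose and 4 fell there.

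Genes of glucose uptake and entry were the list with the most rises: 4 of 8 rose with vilanterol and none fell (median log2 0.11, beside -0.01 over all genes, of which 17.7% were called). The glucose transporter SLC2A3 was 21.8 ± 2.12 TPM with vehicle, 48.5 ± 5.44 TPM with ONO at 1 µM and 82.6 ± 8.83 TPM with vilanterol (SD, n = 4). Its log2 difference from vehicle was 1.12 (limma adjusted p = 4.8e-06) and 1.87 (2.5e-11), and none of the treated libraries overlapped vehicle. With RNO alone it was 22.9 ± 4.36 TPM and overlapped vehicle. With vilanterol the transporter SLC2A1 rose by 0.30 (limma adjusted p = 4e-04), the hexokinase HK2 by 0.26 (0.00029), and PGM2L1, which makes glucose 1,6-bisphosphate, by 0.21 (0.021).

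In the glycogen lists the changes were small. Among 5 tested synthesis genes, glycogenin GYG1, the primer of the glycogen chain, rose with vilanterol from 88.2 ± 4.06 to 100.9 ± 4.31 TPM (SD, n = 4; log2 0.19; limma adjusted p = 4.1e-05). UGP2, which makes UDP-glucose, fell from 79.3 ± 6.05 to 71.8 ± 1.07 TPM (log2 -0.14; adjusted p = 0.0066). None of the 4 tested breakdown genes, the 3 PP1 catalytic subunits or the 2 glycogen synthase kinases was called by limma in any of the 5 comparisons with vehicle. In these comparisons 0.238% to 18.4% of all tested genes were called. In each of them at most 1 gene of these 3 lists had an unadjusted p under 0.05. The catalytic subunits PPP1CA, PPP1CB and PPP1CC were 180.0, 74.3 and 166.1 TPM with vehicle and 173.2, 76.9 and 156.5 TPM with vilanterol. PHKA2, a regulatory subunit of phosphorylase kinase, rose by 0.18 with vilanterol (limma adjusted p = 0.044), although its libraries overlapped vehicle. With RNO alone all 3 tested genes of that kinase had an unadjusted limma p under 0.05 (median log2 0.11). With ONO at 1 µM 2 of the 3 did (median log2 0.13). None of them was called in these 2 comparisons, where 1549 and 2366 of all tested genes had such an unadjusted p.

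Of 14 tested PP1 regulators outside glycogen metabolism, 2 rose and 3 fell with vilanterol, where 17.7% of all genes were called. PPP1R10, a nuclear targeting subunit, rose by 0.48 (limma adjusted p = 3.7e-06), and PPP1R15B, which directs PP1 to the initiation factor eIF2α, rose by 0.31 (0.0047). Its stress-inducible relative PPP1R15A fell from 59.4 ± 6.49 to 38.0 ± 5.91 TPM (SD, n = 4; log2 -0.64; adjusted p = 0.00056). PPP1R18, an actin-associated regulator, fell from 35.2 ± 0.312 to 22.3 ± 0.647 TPM (SD, n = 4; log2 -0.64; 4.3e-15), and PPP1R8, a nuclear inhibitor, fell by 0.17 (0.00063). PPP1R18 also fell with ONO at 1 µM (log2 -0.53; limma adjusted p = 1.7e-12), as did PPP1R15A (-0.53; 0.0084), while PPP1R10 rose there by 0.45 (2.9e-05). PPP1R13L and PPP1R14B fell with ONO 1 µM and RNO (adjusted p = 0.036 and 0.007), and PPP1R13L and PPP1R16A fell with vilanterol and RNO (0.014 and 0.046).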

How the data were processed

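The authors deposited 1 table of a normalised signal, TPM adjusted between samples, for 15788 genes in 40 libraries. Per the labels' protocols the libraries were directional poly(A) libraries. The submitters' processing notes name bcl2fastq 2.18.0.12, kallisto and sleuth, and the builds GRCh37 and hg19. For kallisto and sleuth no version is given in the sources used here. Groups and replicate numbers came from the sample titles. Depth is unknown, so the number of libraries sets the precision.

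Values were taken as log2(value + 1), 12591 genes averaging 1 TPM or more were kept, and limma 3.58.1 (R 4.3.3) estimated each group's mean from a single fit to the 40 libraries (moderated variances with an intensity trend, 30 residual degrees of freedom). Intervals cover 95%. The script was tested on simulated data. The genes named are the 8 chosen ones, other PPP1R3 genes, list genes called in a counted comparison, PTGER4, PDE4D, NR4A3 and the 5 genes most like PPP1R3C. Members and lists were chosen with earlier results of these data known. Alternatives were other pseudocounts, filters, scalings, variance models, a replicate block and leaving out each library. Promoter sequences are RefSeq's, of a later build (GRCh38.p14) than the authors', and were used only for the letters upstream of the start.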

Additional observations from a re-analysis of the deposited data

Results flagged for a closer look

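Of 80 sets of 4 libraries (8 genes in 10 groups), 6 had a library that stood apart from the other 3 by Dixon's test, which chance does in about 1 in 20 sets. For PPP1R3C this was replicate 1 of vilanterol with RNO (26.3 TPM). For PPP1R3B it was replicate 4 of ONO at 0.1 nM (2.66 TPM) and replicate 1 of ONO at 1 nM with RNO (4.76 TPM). The others were PPP1R3D in replicate 1 of ONO at 1 µM with RNO (2.86 TPM), PPP1R3E in replicate 4 of vilanterol with RNO (2.88 TPM) and PYGL in replicate 1 of ONO at 1 µM (109.4 TPM). Replicate 1 accounted for 4 of these 6 libraries.

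Of 24 differences of RNO effects (8 genes in 3 contrasts), 2 passed the test. The effect of RNO with vilanterol minus its effect with ONO at 0.1 nM was -0.70 log2 for PPP1R3C and -0.45 log2 for PPP1R3B. Levels with vilanterol alone were the highest of the 10 groups for both genes (23.0 and 9.41 TPM).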

How the results depend on the processing

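The 24 called differences of the 8 genes kept their direction in all 448 fits of the alternatives. The 112 differences that were not called changed sign in 137 of 2158 fits, none of them called there and none above 0.0556 log2 as reported. Among these, RNO added to vilanterol ranged from -0.11 to 0.0018 for PPP1R3B and from -0.12 to 0.061 for PPP1R3C with a library left out, and the RNO effect at 1 µM ONO minus that at 0.1 nM ranged from -0.080 to 0.024 for PPP1R3B, at 0.0092 without replicate 4 of ONO 1 µM with RNO. Of 714 recomputed differences that the text names, 659 kept their direction and side of the threshold, 46 lost and 5 gained a call, 4 changed sign, and all 270 ratios to vehicle moved by less than the spread between replicates. Scaling to equal totals shifted the median of all genes by at most 0.0343 log2. Of 330 recomputed counts of the 8 genes called, 290 stayed within 1.5 times the reported one. With only the compared groups fitted, the count of called genes was 0 for RNO added to ONO at 1 nM, 0 for RNO added to ONO at 1 µM, 1 for ONO 1 nM against 0.1 nM and 0 for the RNO effect with vilanterol minus that with 0.1 nM ONO, in place of 2 each, with fewer samples in each fit. With each library left out, these counts ranged from 0 to 2, from 1 to 2, from 1 to 1 and from 0 to 2, in the same order. For ONO 1 nM against 0.1 nM the count was 1 without a filter and 1 with equal totals. For the vilanterol difference it was 1 without a filter, 1 with equal totals and 1 with robust variances. The cause was not tested.

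List genes called against vehicle numbered 0 for RNO, and 1 with a minimum mean of 5 TPM, 1 with median-ratio scaling and 0 to 1 with a library left out. With only the compared groups they numbered 6 for vilanterol, 6 for ONO 1 µM with RNO and 6 for vilanterol with RNO, in place of 12, 11 and 14.

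Same-numbered libraries of different groups deviated together in 174 of 180 pairs with a correlation over 0.1 (lowest 0.0204, median 0.259). For differently numbered libraries the median was -0.0846, and 40 of 40 libraries correlated best with their own number. The labels do not state what same-numbered libraries shared, so this pattern comes from the data alone. With the number as a replicate block, ONO 1 nM with RNO against ONO 0.1 nM with RNO gave 2 called subunits in place of 0 (PPP1R3C adjusted p = 0.0053, PPP1R3B 0.02), and library weights gave 1 (PPP1R3C 0.006). PYGL passed for vilanterol against 0.1 nM ONO (0.0092) and for ONO 1 µM with RNO against ONO 1 nM with RNO (0.0068). List genes called became 3 for RNO and 10 in place of 4 for ONO at 1 µM, and 2, 2 and 5 in place of 0 for RNO added to ONO at rising concentrations, and the block raised the count over all genes from 91 to 325 for RNO added to 0.1 nM ONO and from 1843 to 3069 for vilanterol against it.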
